A study of Mus musculus with 54 samples.

Results

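The 9 CXC chemokines described here are Cxcl1, Cxcl2, Cxcl3, Cxcl9, Cxcl10, Cxcl11, Cxcl13, Cxcl14 and Cxcl16, taken by their gene symbols from bulk RNA-seq counts of macrophages sorted from mouse brains. Of the 9 symbols, 8 were found among the 33280 gene symbols of the count tables, and Cxcl11 was not analysed here. The 54 libraries made 18 groups of 3. Microglia (MG), the macrophages of the brain tissue, and subdural CNS-associated macrophages (sdCAMs), which sit in the leptomeninges and around vessels, were sorted from adult brains freed of the choroid plexuses. Mice were wild type (WT, C57BL/6JCrl), Ccr2-/- (B6.129S4-Ccr2tm1Ifc/J, germline loss of a monocyte chemokine receptor) or Ccr2CreERT2 R26tdT reporter mice, whose labels give both alleles as homozygous. In each of the first 2 genotypes, mice were untreated with a PBS injection, or received LPS (bacterial endotoxin, injected into the abdomen) after the vehicle of BLZ945 (CTL) or after BLZ945. BLZ945 blocks the CSF-1 receptor and depletes brain macrophages, whose niches are then refilled, so that the cells sorted 8 weeks after BLZ945 are repopulated cells. All reporter mice received BLZ945 and tamoxifen, then PBS or LPS, and their sdCAMs were split into tdT+ cells, the progeny of cells with an active Ccr2 promoter at the time of tamoxifen, and tdT- cells. Tamoxifen-driven labelling is seldom complete, so a tdT- cell may still be such progeny. Cells were collected 12 h after LPS or PBS. No group received vehicle and PBS, so in WT and Ccr2-/- mice the LPS response below is CTL with LPS against untreated with PBS, in which vehicle and LPS cannot be told apart, and in reporter mice it is BLZ945 with LPS against BLZ945 with PBS.

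CXC chemokines are small secreted proteins that attract leukocytes through G protein-coupled receptors. Cxcl1, Cxcl2 and Cxcl3 bind Cxcr2 and draw neutrophils, and they are early target genes of NF-kappaB. Cxcl9, Cxcl10 and Cxcl11 bind Cxcr3 on activated T cells and NK cells and are classical interferon-induced genes. Cxcl13 binds Cxcr5 and guides B cells, Cxcl14 is a conserved chemokine whose receptor is still debated, and Cxcl16 is made as a membrane protein that is shed by Adam10 and is the ligand of Cxcr6. Macrophages at the borders of the brain and microglia both answer systemic LPS with chemokine transcripts.

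The promoters of the LPS-inducible Cxcr2 ligands and of 2 Cxcr3 ligands are shown as examples. Those of Cxcl13 and Cxcl14 were searched in the same way and are not printed. Sequences are the 250 bases before the start site in RefSeq on GRCm38.p6, 5′ to 3′ on the gene's own strand, in lower case with matches to a kappaB motif (the NF-kappaB site) or to the ISRE core (GAAANNGAA, an interferon response element) in capitals. Cxcl1 (chr5:90890995-90891244), Cxcl2 (chr5:90903649-90903898) and Cxcl3 (chr5:90785851-90786100) lie on the plus strand, and Cxcl9 (chr5:92328080-92328329) and Cxcl10 (chr5:92348890-92349139) on the minus strand of the same chromosome.
Cxcl1: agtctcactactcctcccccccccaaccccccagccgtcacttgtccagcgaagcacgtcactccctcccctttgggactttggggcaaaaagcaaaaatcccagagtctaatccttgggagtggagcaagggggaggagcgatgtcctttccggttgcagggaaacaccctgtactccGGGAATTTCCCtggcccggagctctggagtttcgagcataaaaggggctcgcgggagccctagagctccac
Cxcl2: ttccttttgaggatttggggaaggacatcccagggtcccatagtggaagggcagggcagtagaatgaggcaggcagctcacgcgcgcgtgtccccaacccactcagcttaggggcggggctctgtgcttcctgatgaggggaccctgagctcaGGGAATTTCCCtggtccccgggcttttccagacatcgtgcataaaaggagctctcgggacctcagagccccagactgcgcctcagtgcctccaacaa
Cxcl3: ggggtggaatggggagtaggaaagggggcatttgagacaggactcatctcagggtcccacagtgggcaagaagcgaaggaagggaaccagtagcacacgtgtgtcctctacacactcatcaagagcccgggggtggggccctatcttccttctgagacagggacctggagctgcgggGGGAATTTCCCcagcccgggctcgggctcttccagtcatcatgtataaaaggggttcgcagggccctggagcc
Cxcl9: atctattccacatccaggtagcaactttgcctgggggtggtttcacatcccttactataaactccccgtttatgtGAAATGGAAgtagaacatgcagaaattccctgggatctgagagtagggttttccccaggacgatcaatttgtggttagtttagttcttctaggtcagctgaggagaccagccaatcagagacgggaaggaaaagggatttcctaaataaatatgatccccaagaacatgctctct
Cxcl10: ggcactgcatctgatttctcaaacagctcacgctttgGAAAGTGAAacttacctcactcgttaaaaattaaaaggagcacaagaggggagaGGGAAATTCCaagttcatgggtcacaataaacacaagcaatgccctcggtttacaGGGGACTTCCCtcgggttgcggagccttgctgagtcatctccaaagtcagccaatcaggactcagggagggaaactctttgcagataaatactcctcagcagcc
The Cxcr2 ligands each held an overlapping pair of kappaB matches, which began at -71 and -70 from the start site in Cxcl1, at -97 and -96 in Cxcl2 and at -73 and -72 in Cxcl3. Cxcl10 held 3 kappaB matches, at -159, -104 and -103, the last 2 of which overlapped, and an ISRE core match at -213. Cxcl9 held an ISRE core match at -175. Windows were matched for 7 of the 8 genes, without Cxcl16. Searched on both strands, kappaB matched 4 of these 7 windows and 7.25% of all 32851 RefSeq windows of this length, the ISRE core matched 3 of 7 (Cxcl9, Cxcl10 and Cxcl14) and 7.13% of all, and a STAT site (TTCNNNGAA) matched 1 of 7 (Cxcl14) and 7.02% of all. None of these letters stood in the window of Cxcl13. A match is a description of letters and was not tested for binding.

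Totals per library were 1705930 to 7699790 counts in WT sdCAMs, 2060240 to 9850283 in reporter sdCAMs and 7497764 to 11330781 in all other libraries, so 3 counts stand for 0.265 to 1.76 CPM (counts divided by the library's total of gene counts and multiplied by 1e6). The sorted populations carried their defining markers, since summed sdCAM markers lay at 1141 to 17350 CPM in sdCAM libraries and at 0.47 to 29.3 CPM in MG libraries. Summed microglial markers in MG were 15300 to 28820 CPM without LPS and 2289 to 6360 CPM after it, and in sdCAM libraries they reached 7678 CPM (WT untreated mouse 15). Ccr2, the targeted gene, lay at 43, 16.8 and 34.2 CPM in untreated WT sdCAMs and at 3.02, 2.46 and 5.59 CPM in untreated Ccr2-/- sdCAMs, while after CTL and LPS it lay at 0.26, 0 and 0.152 CPM in WT and 5.33, 2.92 and 3.17 CPM in Ccr2-/- sdCAMs and so did not separate the genotypes there. Several libraries stood apart. Of the 9 WT sdCAM libraries, all 3 after CTL and LPS, 1 of 3 after BLZ945 and LPS (mouse 12) and 2 of 3 untreated ones (mice 9 and 14) carry a mark in the labels, "IEG_correction", that the labels do not explain. In the 4 marked libraries after LPS the 20 most abundant genes took 49 to 58.2% of counts against 15.2 to 17.7% in the other 5 WT sdCAM libraries, and Saa3 alone, an acute-phase gene, took 21.0 to 35.8%. In reporter mice the index number of a pair of sdCAM libraries (tdT- of mouse 1 and tdT+ of mouse 7, both LPS) is swapped between column names and labels. Sex-linked genes gave both a male and a female library in 2 of 24 mice with the columns as named and in 0 of 24 with these 2 columns exchanged. Pf4, a platelet-factor chemokine of macrophages, in contrast separated tdT- (1049, 1341 and 1153 CPM) from tdT+ sdCAMs (80.1, 34.2 and 108 CPM) after LPS with the columns as named. Reporter results of the members are given as named, with the exchange beside them. Those of the genes in the other lists are given as named only, since the exchange was not run for them. After LPS, Saa3 took 14.5, 28.3 and 17.8% of counts in tdT- sdCAMs of mice 1, 5 and 7, and 2.1, 0.7 and 2.7% in tdT+ sdCAMs. The 20 most abundant genes took 34, 51.3 and 36.1% in these tdT- and 18, 12.3 and 18.4% in these tdT+ libraries. The LPS library of tdT+ sdCAMs of mouse 5 held 2987 CPM of microglial markers against 303 to 334 CPM in the other 2 of its group. The MG library of the same mouse held 3622 CPM of them. The sdCAM markers of this tdT+ library summed to 1141 CPM, against 6756 CPM in mouse 1 and 7612 CPM in mouse 7. Titles of the Ccr2-/- LPS libraries name the other cell type, and the cell type field was used.

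LPS raised members of the family in MG and sdCAMs of each genotype, and the numbers of calls were not compared between genotypes. After LPS, sdCAMs held more of the Cxcr2 ligands, Cxcl9 and Cxcl13 than MG in WT and Ccr2-/- mice. In these bulk samples, fewer cells of a type and less RNA per cell cannot be told apart. A call below is an adjusted p under 0.05 with a log2 fold change over 1 in size. In WT MG, 4 of 6 members tested were called higher with LPS (16.7% of all genes were called) and in WT sdCAMs 3 of 7 (6.32% of all genes). In Ccr2-/- mice, 6 of 6 were called in MG (19.4% of all genes) and 7 of 8 in sdCAMs (21.5% of all genes). In repopulated reporter cells, 2 of 5 were called in MG (1.08% of all genes), 5 of 8 in tdT+ sdCAMs, of which Cxcl16 was lower (13.4% of all genes), 6 of 8 in tdT- sdCAMs (26.5% of all genes) and 5 of 8 in the mean response of both sdCAM populations (28.8% of all genes). The median log2 fold change of the members tested was 3.37 in WT MG, 4.09 in WT sdCAMs, 4.42 in Ccr2-/- MG and 5.09 in Ccr2-/- sdCAMs, and that of all genes tested was 0.023, -0.075, 0.003 and -0.045. The members not tested (Cxcl1 and Cxcl3 in MG, Cxcl9 in reporter MG and Cxcl3 in WT sdCAMs) had too few counts, and a member that passed the low-count filter through its LPS libraries alone had to differ, so these counts and medians describe and do not test the family. Comparisons within a genotype share their untreated samples.

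**Figure D1:**
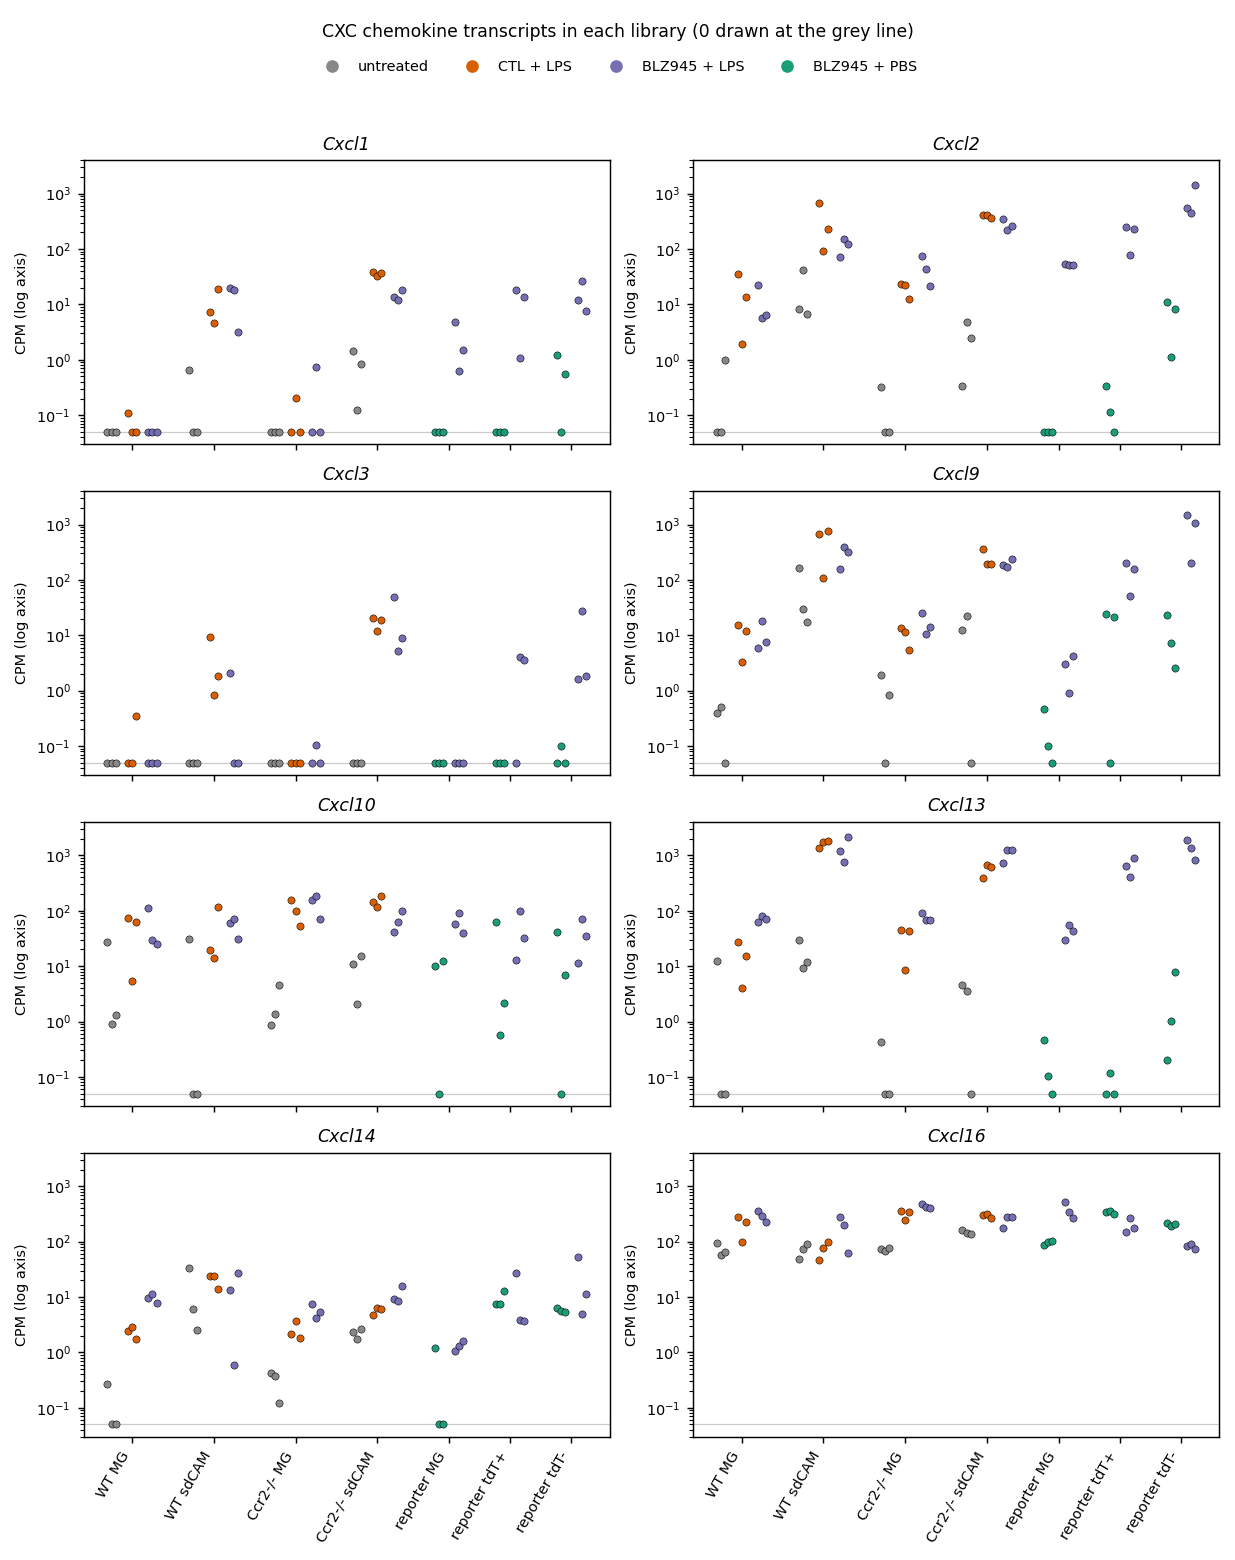
CPM of each chemokine in every library on a log axis, with libraries at 0 placed on the grey line. All sdCAM libraries after LPS stand above all other libraries for Cxcl13, and Cxcl16 is the one member at 46.9 CPM or more in every library.

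**Figure D2:**
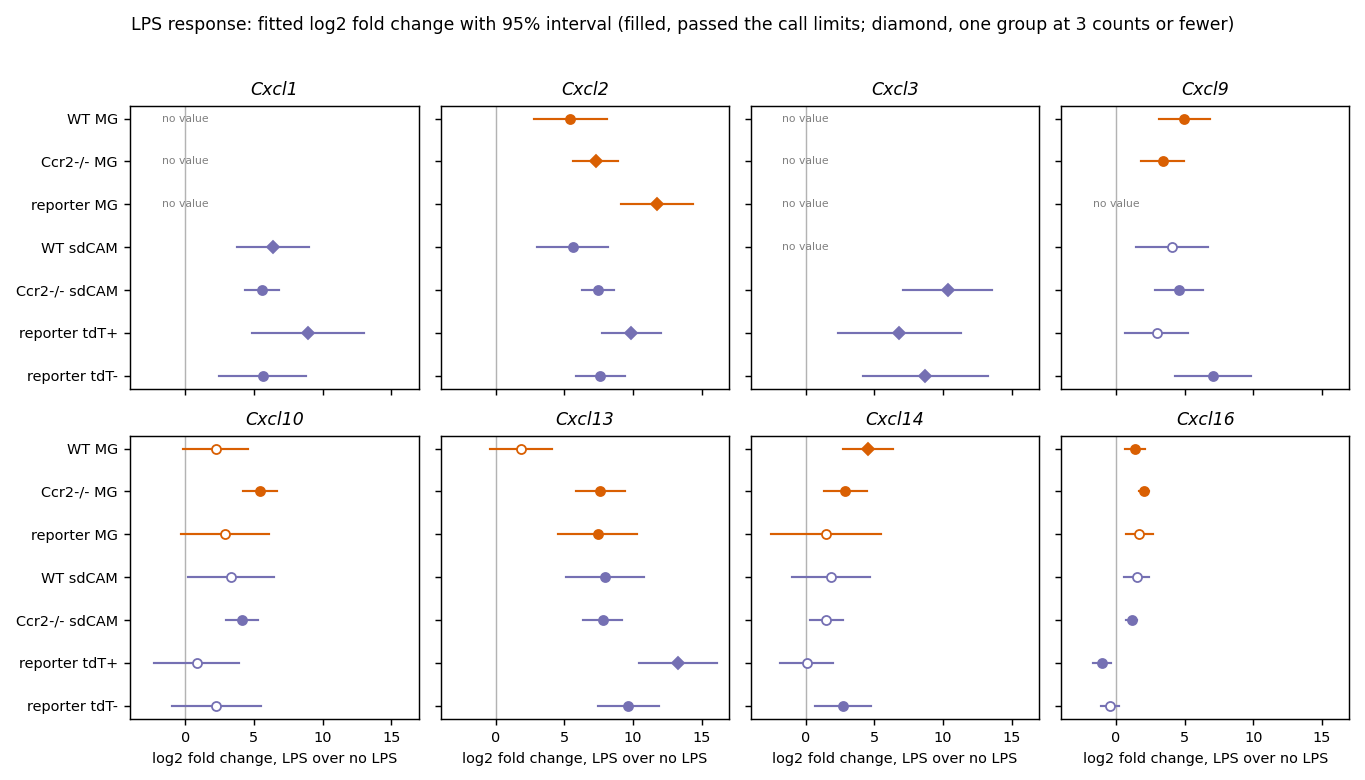
Log2 fold change of each member with LPS in MG (orange) and sdCAMs (purple) of each genotype, with bars for 95% intervals, filled symbols for calls and diamonds where a group held at most 3 counts in every library. Nearly all values lie above 0, and the values of Cxcl16 in reporter sdCAMs lie below it.

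Cxcl2, a neutrophil attractant, was nearly silent in MG without LPS and was induced in every population. In WT MG it lay at 0, 0 and 1.00 CPM untreated, at 35.9, 1.93 and 13.8 CPM after CTL and LPS and at 22.4, 5.58 and 6.57 CPM after BLZ945 and LPS. Each LPS library stood above each untreated one. The LPS response in WT MG was 5.44 (SE 1.22, adjusted p = 0.00565) as log2 fold change. In WT sdCAMs Cxcl2 lay at 8.2, 41.7 and 6.74 CPM untreated, 669, 93 and 228 CPM after CTL and LPS and 72.3, 149 and 126 CPM after BLZ945 and LPS. All LPS libraries were again above all untreated ones, and untreated mouse 14 was the highest of the latter. The log2 fold change in WT sdCAMs was 5.61 (SE 1.17, adjusted p = 0.0207), with an adjusted p of 0.054 to 0.0785 when CTL mouse 1, CTL mouse 6, untreated mouse 9 or untreated mouse 15 was left out. In Ccr2-/- MG it went from 0.325, 0 and 0 CPM to 23.8, 22.5 and 12.5 CPM, a count ratio of 187 (exact 95% counting interval 63.6 to 908, adjusted p = 7.69e-06). Ccr2-/- sdCAMs went from 0.336, 4.8 and 2.43 CPM to 413, 420.2 and 358 CPM with a log2 fold change of 7.46 (SE 0.53, adjusted p = 6.35e-07). The groups did not overlap in either cell type. Summed neutrophil markers were 75.3 to 117.7 CPM in these Ccr2-/- sdCAM libraries, 129.5 to 1129 CPM in WT sdCAMs after CTL and LPS, at most 25.1 CPM in MG after LPS and 0 to 79.4 CPM in sdCAMs without LPS, with 1 to 3 of the 5 markers at 0 in the sdCAM libraries after LPS, and their part in the sdCAM result was not tested.

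Untreated sdCAMs already held more Cxcl2 than MG. The log2 difference of sdCAMs over MG was 6.02 (SE 1.40, adjusted p = 0.00764) in untreated WT mice, where every sdCAM library was above every MG library. The count ratio in untreated Ccr2-/- mice was 23.2 (exact 95% counting interval 7.56 to 115, adjusted p = 0.00614), with an adjusted p of 0.05 without sdCAM library 3m. After CTL and LPS the difference was 6.13 (SE 1.28, adjusted p = 0.00173) in WT and 4.61 (SE 0.51, adjusted p = 1.27e-06) in Ccr2-/- mice.

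Cxcl1, the neutrophil attractant first known as KC, was a gene of LPS-exposed sdCAMs, with at most 0.735 CPM in any MG library of WT and Ccr2-/- mice. In WT sdCAMs it lay at 0.656, 0 and 0 CPM untreated, 7.4, 4.61 and 18.8 CPM after CTL and LPS and 20.1, 18.2 and 3.19 CPM after BLZ945 and LPS. The count ratio of CTL and LPS over untreated was 43 (exact 95% counting interval 11.8 to 358, adjusted p = 0.0149). The groups did not overlap, and the adjusted p was 0.075 without CTL mouse 6 and 0.0587 without untreated mouse 14. Ccr2-/- sdCAMs held 1.46, 0.123 and 0.851 CPM untreated, 39.2, 32.1 and 36.5 CPM after CTL and LPS and 13.6, 12.3 and 18.2 CPM after BLZ945 and LPS. The log2 fold change with LPS there was 5.58 (SE 0.56, adjusted p = 1.17e-05). Against MG, sdCAMs after CTL and LPS had a count ratio of 300 (exact 95% counting interval 53.3 to 11900, adjusted p = 0.000357) in WT and 558 (exact 95% counting interval 154 to 4610, adjusted p = 6.64e-06) in Ccr2-/- mice. In untreated WT mice Cxcl1 was under the floor of 3 counts in every library of both cell types. In untreated Ccr2-/- mice sdCAMs were at least 2.52-fold higher (adjusted p = 0.0123) than MG, and this adjusted p was 0.0527 without sdCAM library 1m.

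Cxcl3, the third Cxcr2 ligand, appeared almost only in sdCAMs after LPS. In Ccr2-/- sdCAMs it was at 0 in the 3 untreated libraries, at 20.7, 12.2 and 19.3 CPM after CTL and LPS and at 49.9, 5.28 and 9.00 CPM after BLZ945 and LPS. With LPS it was at least 48.7-fold higher (adjusted p = 0.000433). In WT sdCAMs it was at 0 untreated, at 9.48, 0.838 and 1.82 CPM after CTL and LPS and at 2.06, 0 and 0 CPM after BLZ945 and LPS. This WT response was not tested for lack of counts and is at least 3.25-fold against the floor of 3 counts a library. Over MG, sdCAMs after CTL and LPS had a count ratio of 45.4 (exact 95% counting interval 15 to 224, adjusted p = 0.0207) in WT mice, where the mouse as a block gave an adjusted p of 0.0529 and DESeq2 0.222, and were at least 60.2-fold higher (adjusted p = 9.91e-05) in Ccr2-/- mice. The WT call also rested on single libraries, with an adjusted p of 0.0943 without CTL sdCAM mouse 1 and 0.0808 without CTL MG mouse 1 or mouse 4. MG held Cxcl3 in 1 WT CTL library (3 counts) and 1 Ccr2-/- BLZ945 library (1 count), and reporter MG held none.

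The Cxcr3 ligands followed LPS in Ccr2-/- mice in both cell types and less uniformly in WT mice. Cxcl9, a T cell attractant of the interferon-gamma response, lay in WT MG at 0.4, 0.509 and 0 CPM untreated, 15.2, 3.26 and 12.2 CPM after CTL and LPS and 5.85, 18.1 and 7.68 CPM after BLZ945 and LPS. No LPS library reached down to the untreated ones, and the log2 fold change was 4.98 (SE 0.86, adjusted p = 0.00131). In WT sdCAMs it lay at 166, 30.4 and 17.1 CPM untreated, 685, 109 and 764 CPM after CTL and LPS and 156, 399 and 318 CPM after BLZ945 and LPS. Untreated mouse 9 was above CTL mouse 4, so the groups overlapped, and the log2 fold change of 4.09 (SE 1.19, adjusted p = 0.0631) was not called. That response was called in 7 of 15 alternatives, DESeq2, the library totals with no factor and the omission of untreated mouse 9 at 5.97 (adjusted p = 0.0484) among them. In Ccr2-/- mice Cxcl9 went from 1.95, 0 and 0.843 CPM to 13.4, 11.4 and 5.39 CPM in MG, a log2 fold change of 3.39 (SE 0.74, adjusted p = 0.00277). The sdCAMs of these mice went from 12.3, 22.3 and 0 CPM to 369, 196 and 195 CPM with a log2 fold change of 4.60 (SE 0.82, adjusted p = 0.00101). Neither Ccr2-/- cell type had overlapping groups.

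Cxcl9 was called higher in sdCAMs than in MG in each comparison of cell type. Its log2 difference of sdCAMs over MG was 8.36 (SE 1.34, adjusted p = 0.000497) in untreated WT and 3.70 (SE 0.98, adjusted p = 0.00923) in untreated Ccr2-/- mice, the latter with an adjusted p of 0.0635 without sdCAM library 3m. After CTL and LPS it was 7.44 (SE 1.21, adjusted p = 0.000383) in WT and 4.92 (SE 0.81, adjusted p = 0.000128) in Ccr2-/- mice. The WT groups did not overlap in either condition.

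Cxcl10, the interferon-inducible ligand that many cell types make, was present in both cell types after LPS. In WT MG it lay at 27.2, 0.891 and 1.33 CPM untreated, 73.9, 5.32 and 62.1 CPM after CTL and LPS and 111, 30.3 and 24.9 CPM after BLZ945 and LPS. Untreated mouse 9 stood far above the other untreated mice and CTL mouse 4 far below the other CTL mice, and the log2 fold change of 2.20 (SE 1.10, adjusted p = 0.15) was not called. It was 5.28 (adjusted p = 0.0123) without the first of these libraries and 2.74 (adjusted p = 0.0318) without the second. In WT sdCAMs it lay at 30.5, 0 and 0 CPM untreated, 19.9, 14.2 and 117 CPM after CTL and LPS and 60.8, 70.9 and 30.9 CPM after BLZ945 and LPS. The CTL and untreated groups overlapped through untreated mouse 9, and the log2 fold change was 3.33 (SE 1.44, adjusted p = 0.179), or 11.16 (adjusted p = 0.0123) without that mouse. Ccr2-/- mice gave a clear separation, from 0.867, 1.39 and 4.58 CPM to 154, 97.7 and 53.4 CPM in MG (log2 fold change 5.46, SE 0.58, adjusted p = 8.18e-06). The sdCAMs of these mice went from 10.8, 2.09 and 15 CPM to 144, 117 and 181 CPM (log2 fold change 4.14, SE 0.54, adjusted p = 9.37e-05). The log2 difference of sdCAMs over MG after CTL and LPS was 1.72 (95% interval -1.09 to 4.54, adjusted p = 0.322) in WT and 0.80 (95% interval -0.30 to 1.90, adjusted p = 0.286) in Ccr2-/- mice, intervals that leave room for differences in both directions. Untreated WT mice gave 0.70 (95% interval -2.20 to 3.59, adjusted p = 0.764). Untreated Ccr2-/- sdCAMs exceeded MG by 2.08 (SE 0.66, adjusted p = 0.0289), a call lost in 4 of 6 omissions of a library (sdCAM 1m or 5f, MG 1m or 3m; adjusted p 0.0728 to 0.14).

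Cxcl13, the B cell attractant, rose with LPS in the sdCAMs of every genotype and in the MG of Ccr2-/- and reporter mice. In WT sdCAMs it lay at 29.5, 9.21 and 11.9 CPM untreated, 1379.5, 1769 and 1784 CPM after CTL and LPS and 1179, 752 and 2114 CPM after BLZ945 and LPS. The LPS and untreated groups were separated widely, with a log2 fold change of 7.96 (SE 1.29, adjusted p = 0.00849) that had an adjusted p of 0.0559 without untreated mouse 14. In Ccr2-/- sdCAMs it lay at 4.59, 3.57 and 0 CPM untreated, 384, 663 and 621 CPM after CTL and LPS and 726, 1271 and 1229.7 CPM after BLZ945 and LPS, and the log2 fold change with LPS was 7.80 (SE 0.64, adjusted p = 2.05e-06). Microglia made less of it. WT MG held 12.5, 0 and 0 CPM untreated, 26.8, 4.11 and 15 CPM after CTL and LPS and 63.8, 78.9 and 71.9 CPM after BLZ945 and LPS. Untreated mouse 9 overlapped the CTL group, and the log2 fold change of 1.83 (SE 1.04, adjusted p = 0.207) became 10.02 (adjusted p = 0.00204) without it. In Ccr2-/- MG it went from 0.433, 0 and 0 CPM to 45.1, 8.46 and 42.5 CPM with a log2 fold change of 7.64 (SE 0.83, adjusted p = 1.04e-05). The log2 difference of sdCAMs over MG after CTL and LPS was 8.54 (SE 1.64, adjusted p = 0.00105) in WT and 4.38 (SE 0.59, adjusted p = 1.34e-05) in Ccr2-/- mice, with no overlap. Untreated WT mice gave 2.49 (SE 1.29, adjusted p = 0.188), or 4.68 (adjusted p = 0.024) with the mouse as a block and 9.85 (adjusted p = 0.0021) without MG mouse 9. Untreated Ccr2-/- mice gave 4.18 (SE 1.27, adjusted p = 0.0222), a call lost in 4 of 6 omissions of a library (sdCAM 1m or 3m, MG 3m or 5f; adjusted p 0.0616 to 0.101).

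Cxcl14, a chemokine of epithelial and stromal tissues, was low throughout. In WT MG it lay at 0.267, 0 and 0 CPM untreated, 2.48, 2.9 and 1.75 CPM after CTL and LPS and 9.67, 11.2 and 7.68 CPM after BLZ945 and LPS, which set the 3 groups apart. The count ratio with LPS was 28.9 (exact 95% counting interval 7.68 to 244, adjusted p = 0.00195). In Ccr2-/- MG it went from 0.433, 0.371 and 0.12 CPM to 2.12, 3.62 and 1.8 CPM (log2 fold change 2.89, SE 0.72, adjusted p = 0.00641). WT sdCAMs held 34.1, 6.01 and 2.59 CPM untreated, 24.2, 24.3 and 13.8 CPM after CTL and LPS and 13.6, 0.586 and 27.3 CPM after BLZ945 and LPS. These groups overlapped, and the log2 fold change with LPS was 1.84 (SE 1.29, adjusted p = 0.405). Ccr2-/- sdCAMs went from 2.35, 1.72 and 2.67 CPM to 4.82, 6.25 and 5.99 CPM, which did not overlap but were not called by edgeR (log2 fold change 1.48, SE 0.55, adjusted p = 0.0634), while DESeq2 called them (adjusted p = 0.0147). Over MG, untreated sdCAMs had a count ratio of 202 (exact 95% counting interval 54.7 to 1690, adjusted p = 0.00327) in WT mice and a log2 difference of 2.81 (SE 0.61, adjusted p = 0.00217) in Ccr2-/- mice. After CTL and LPS the log2 difference was 4.99 (SE 1.22, adjusted p = 0.00463) in WT and 1.45 (SE 0.53, adjusted p = 0.0505) in Ccr2-/- mice. The last of these was not called, but was with DESeq2 (adjusted p = 0.00658), RLE factors (adjusted p = 0.0433) and a minimum mean of 10 counts (adjusted p = 0.0466). In untreated mice, summed fibroblast markers were 18.1 to 47.9 CPM in WT sdCAMs, 5.35 to 24.5 CPM in Ccr2-/- sdCAMs and at most 0.361 CPM in MG. After CTL and LPS they were 8.8 to 15.1 CPM in WT sdCAMs, 20.3 to 23.9 CPM in Ccr2-/- sdCAMs and at most 0.967 CPM in MG. Their part in the Cxcl14 differences was not tested.

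Cxcl16, the membrane-bound ligand of Cxcr6, was well expressed without LPS in both cell types and rose with LPS in the MG of WT and Ccr2-/- mice. In WT MG it lay at 92.7, 58.5 and 66.3 CPM untreated, 275, 99.6 and 226 CPM after CTL and LPS and 351, 289 and 226 CPM after BLZ945 and LPS. All LPS libraries were above all untreated ones, CTL mouse 4 by little, and the log2 fold change was 1.38 (SE 0.32, adjusted p = 0.00728). In Ccr2-/- MG it lay at 74, 68.5 and 75.4 CPM untreated, 351, 245 and 344 CPM after CTL and LPS and 482, 417 and 404 CPM after BLZ945 and LPS, with a log2 fold change with LPS of 2.05 (SE 0.17, adjusted p = 9.59e-07). WT sdCAMs gave 48.5, 74.5 and 91.8 CPM untreated, 46.9, 76.7 and 97.6 CPM after CTL and LPS and 282, 196 and 62.8 CPM after BLZ945 and LPS. The untreated and CTL groups overlapped in plain CPM, with means of 71.6 and 73.7 CPM, while the TMM-scaled log2 fold change was 1.52 (SE 0.41, adjusted p = 0.0519), so this value depends on the scaling between libraries. DESeq2 (adjusted p = 0.00876), the label mark as a covariate (adjusted p = 0.0297) and a fit of these 6 libraries (adjusted p = 0.0379) called it, and with no factor it was 0.04 (adjusted p = 0.965). In Ccr2-/- sdCAMs Cxcl16 lay at 160.0, 144 and 135 CPM untreated, 297, 318 and 262 CPM after CTL and LPS and 176, 282 and 284 CPM after BLZ945 and LPS. The first 2 groups did not overlap, and the log2 fold change was 1.15 (SE 0.19, adjusted p = 0.000532), which library totals with no factor brought to 1.00, no longer over the limit. The log2 difference of sdCAMs over MG was 0.29 (95% interval -0.48 to 1.06, adjusted p = 0.621) in untreated WT and 1.03 (SE 0.18, adjusted p = 0.000283) in untreated Ccr2-/- mice, and the latter was 0.97 without sdCAM library 1m. After CTL and LPS it was 0.33 (SE 0.37, adjusted p = 0.5) in WT mice, or -1.44 (adjusted p = 0.0201) with no factor, and 0.17 (95% interval -0.20 to 0.54, adjusted p = 0.53) in Ccr2-/- mice.

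**Figure D3:**
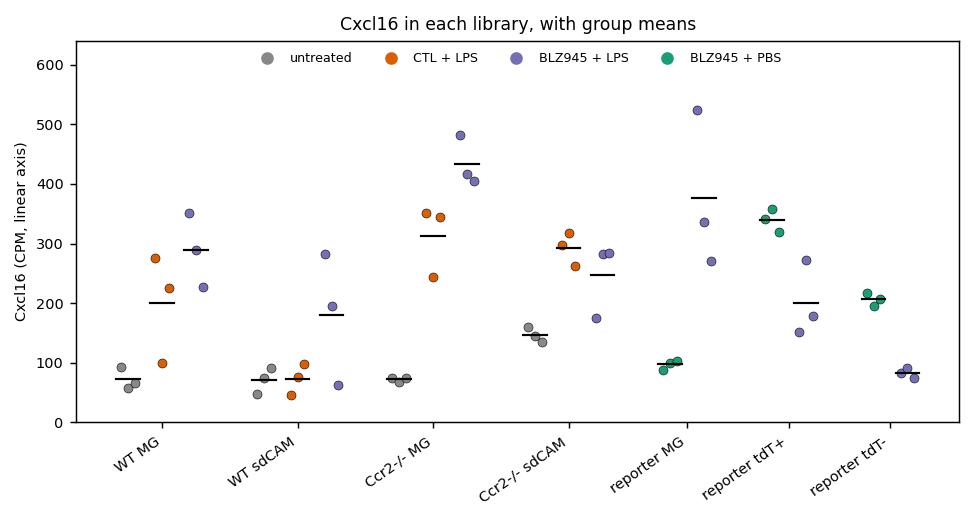
CPM of Cxcl16 in each library on a linear axis, with a line at each group mean. MG of all 3 genotypes are higher after LPS, whereas both sdCAM populations of reporter mice are lower after LPS than after PBS.

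Counted over all members, sdCAMs exceeded MG for 3 of 8 in untreated WT mice (17.1% of all genes were called in either direction) and 7 of 8 in untreated Ccr2-/- mice (15.0% of all genes), though leaving out 1 library at a time gave 3 to 6 calls in the latter. After CTL and LPS they did so for 6 of 8 in WT (35.4% of all genes) and 5 of 8 in Ccr2-/- mice (18.4% of all genes). No member was called lower in sdCAMs of these genotypes. In untreated mice, Cxcl3 in both genotypes and Cxcl1 in WT mice held at most 3 counts in every library, which left no readable difference. They passed the low-count filter through sdCAM libraries after LPS, so these counts describe and do not test the family. The difference of the LPS response between cell types was called for 0 of 8 members in WT (1.32% of all genes) and 0 of 8 in Ccr2-/- mice (6.88% of all genes). There edgeR gave 1 member at an unadjusted p under 0.05 in each and DESeq2 called 1 in each, Cxcl13 in WT and Cxcl3 in Ccr2-/- mice. Over all genes at that p, edgeR gave 2344 of 13136 in WT and 2684 of 12890 in Ccr2-/- mice, and DESeq2 called 891 and 1207. In WT mice the Cxcl13 response was larger in sdCAMs by 6.05 (SE 1.83, adjusted p = 0.104). In Ccr2-/- mice the Cxcl16 response was smaller in sdCAMs, with a log2 difference of -0.87 (SE 0.25, adjusted p = 0.0403), which passed the adjusted p but not the fold limit. Without MG library V2m it was -1.06 (adjusted p = 0.0114) and called. The other differences in response that could be fitted were, in WT mice, -0.92 (95% interval -3.84 to 1.99, adjusted p = 0.784) for Cxcl9 and 1.03 (95% interval -2.97 to 5.02, adjusted p = 0.834) for Cxcl10. They were -2.62 (95% interval -6.43 to 1.19, adjusted p = 0.468) for Cxcl14 and 0.04 (95% interval -1.05 to 1.13, adjusted p = 0.997) for Cxcl16, the last -1.42 (adjusted p = 0.142) with no factor. In Ccr2-/- mice they were 1.22 (95% interval -1.56 to 4.00, adjusted p = 0.69) for Cxcl9, -1.28 (95% interval -3.04 to 0.49, adjusted p = 0.436) for Cxcl10 and -1.36 (95% interval -3.01 to 0.28, adjusted p = 0.349) for Cxcl14. With MG at or near 0 without LPS, the estimates for Cxcl1, Cxcl2 and Cxcl3 in both genotypes and for Cxcl13 in Ccr2-/- mice had standard errors too large to read.

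**Figure D4:**
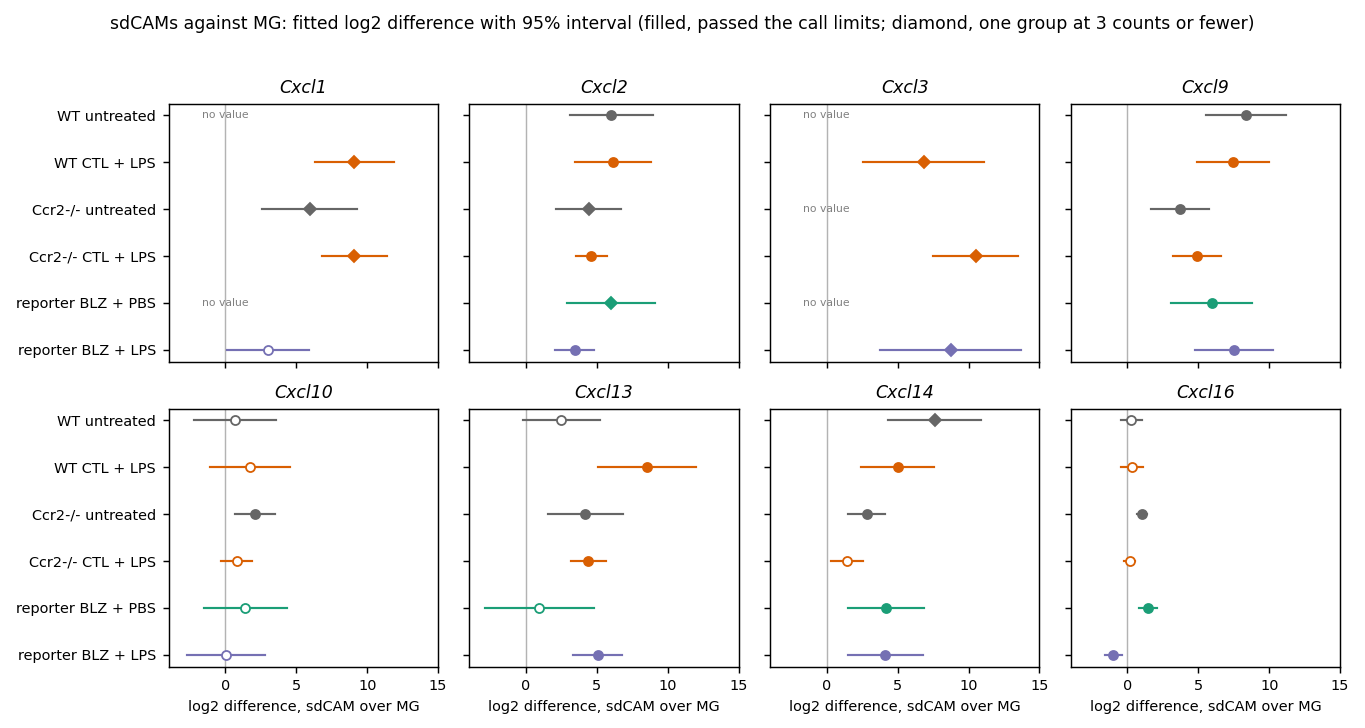
Log2 difference of sdCAMs over MG for each member, coloured by condition, with 95% intervals and filled symbols for calls. Cxcl9 is called above 0 in all 6 comparisons, Cxcl10 has intervals across 0 after LPS, and Cxcl16 is called above 0 in untreated Ccr2-/- mice and reporter mice after PBS and below 0 in reporter mice after LPS.

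Repopulation in WT and Ccr2-/- mice was compared as BLZ945 against CTL, both after LPS. No member passed the test, with 0 of 6 called in WT MG (0.0763% of all genes), 0 of 7 in WT sdCAMs (0% of all genes), 0 of 6 in Ccr2-/- MG (0.0173% of all genes) and 0 of 8 in Ccr2-/- sdCAMs (0% of all genes). With edgeR, members at an unadjusted p under 0.05 numbered 2, 1, 3 and 2 in that order, and DESeq2 called 1, 0, 0 and 0. Over all genes at an unadjusted p under 0.05, edgeR gave 776 of 11789 in WT MG and 758 of 10504 in WT sdCAMs. It gave 769 of 11558 in Ccr2-/- MG and 998 of 11941 in Ccr2-/- sdCAMs. DESeq2 called 46, 14, 26 and 84 genes in that order. The libraries of the BLZ945 and CTL groups did not overlap for several members. How many of all genes did so was not counted. With 3 libraries a group, the values below describe levels and show no effect of repopulation. In MG, Cxcl13 was higher in each BLZ945 library than in each CTL library in both genotypes, with log2 differences of 2.25 (95% interval 0.18 to 4.32, adjusted p = 0.729) in WT and 1.31 (95% interval 0.31 to 2.31, adjusted p = 0.683) in Ccr2-/- mice. Cxcl14 was likewise higher in each BLZ945 library of MG, by 2.03 (95% interval 0.81 to 3.25, adjusted p = 0.426) in WT, where DESeq2 gave an adjusted p of 0.0257, and by 1.21 (95% interval -0.09 to 2.52, adjusted p = 0.77) in Ccr2-/- mice. In Ccr2-/- MG, Cxcl16 stood apart as well, by 0.52 (95% interval 0.17 to 0.86, adjusted p = 0.641). Cxcl2 overlapped there at 1.31 (95% interval 0.39 to 2.23, adjusted p = 0.644), with an unadjusted p of 0.00879 in edgeR. Cxcl9 at 0.80 (95% interval -0.53 to 2.12, adjusted p = 0.893) and Cxcl10 at 0.49 (95% interval -0.44 to 1.42, adjusted p = 0.918) overlapped too. In Ccr2-/- sdCAMs each BLZ945 library was below each CTL library for 3 members, with log2 differences of -1.28 (95% interval -2.24 to -0.31, adjusted p = 0.503) for Cxcl1, -0.51 (95% interval -1.33 to 0.31, adjusted p = 0.76) for Cxcl2 and -1.11 (95% interval -2.13 to -0.09, adjusted p = 0.558) for Cxcl10. Each was above for Cxcl13 at 0.96 (95% interval -0.04 to 1.95, adjusted p = 0.602) and Cxcl14 at 0.96 (95% interval -0.21 to 2.12, adjusted p = 0.665). The groups overlapped for Cxcl3 at 0.35 (95% interval -1.24 to 1.95, adjusted p = 0.941) and Cxcl9 at -0.34 (95% interval -1.83 to 1.15, adjusted p = 0.939). Cxcl16 overlapped at -0.24 (95% interval -0.64 to 0.16, adjusted p = 0.771). In WT MG, the CTL and BLZ945 libraries overlapped for Cxcl2 at -0.56 (95% interval -2.45 to 1.33, adjusted p = 0.969) and Cxcl9 at 0.08 (95% interval -1.26 to 1.42, adjusted p = 0.993). They did so for Cxcl10 at 0.26 (95% interval -1.94 to 2.46, adjusted p = 0.99) and Cxcl16 at 0.56 (95% interval -0.12 to 1.25, adjusted p = 0.802). Cxcl1 and Cxcl3 in MG, and Cxcl3 in WT sdCAMs, had too few counts for a test. In WT sdCAMs the log2 difference was -2.42 (95% interval -4.64 to -0.20, adjusted p = 0.69) for Cxcl2. Cxcl13 gave -0.84 (95% interval -2.93 to 1.26, adjusted p = 0.823) and Cxcl16 -0.05 (95% interval -0.93 to 0.84, adjusted p = 0.98). It was -0.98 (95% interval -2.91 to 0.96, adjusted p = 0.78) for Cxcl1 and -1.63 (95% interval -3.99 to 0.72, adjusted p = 0.725) for Cxcl9. Cxcl10 gave -0.93 (95% interval -3.81 to 1.96, adjusted p = 0.856) and Cxcl14 -0.98 (95% interval -3.73 to 1.77, adjusted p = 0.838). The groups overlapped for all 7. These values depend on the scaling, since library totals with no factor moved the median of all genes by 1.35 on the log2 scale, with 98% of the genes then called being higher after BLZ945. In plain CPM the means of Cxcl16 were 180.3 after BLZ945 and 73.7 after CTL, and its log2 difference with no factor was 1.29 (adjusted p = 0.202). The sign also turned for Cxcl1, to 0.41 (adjusted p = 0.817), and Cxcl10, to 0.10 (adjusted p = 0.944). The mark of the labels runs with this comparison, since 3 of 3 CTL and 1 of 3 BLZ945 libraries carry it and Saa3 took 35.8, 23.1 and 23.0% of counts after CTL but 2.4, 1.8 and 21.0% after BLZ945. Its part in the result was not tested.

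**Figure D5:**
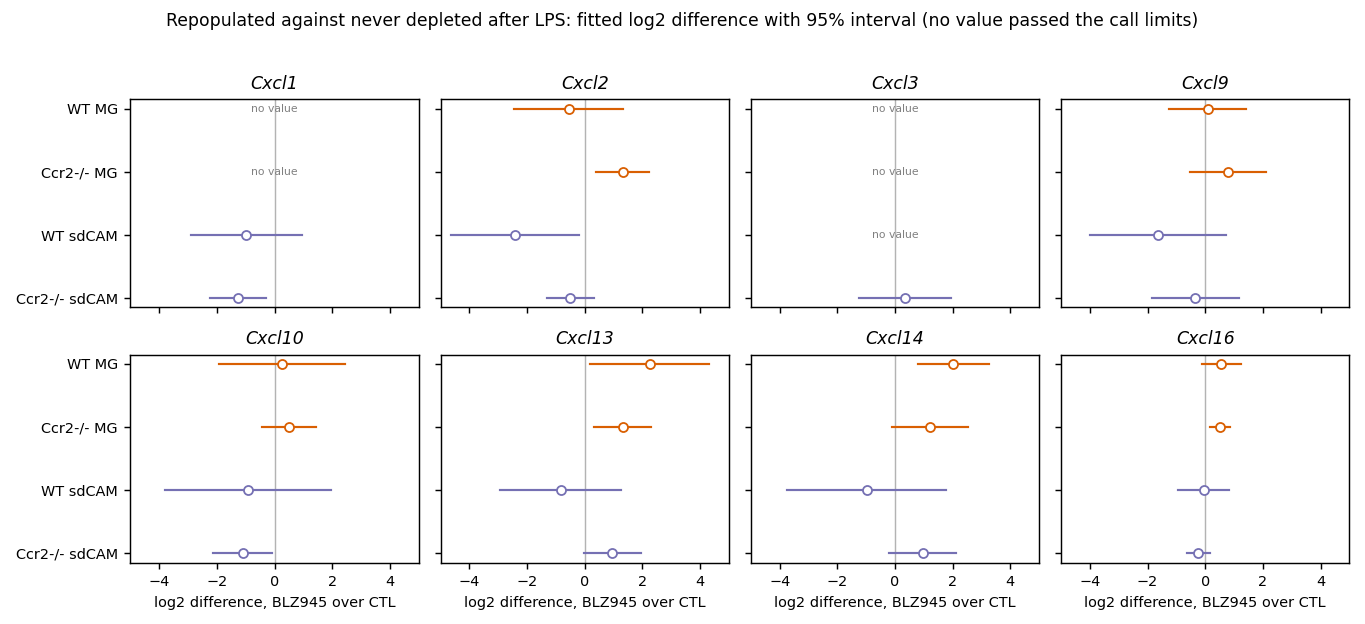
Log2 difference of BLZ945 over CTL after LPS for each member in MG (orange) and sdCAMs (purple), with 95% intervals. No value is called. Cxcl9, Cxcl10, Cxcl13, Cxcl14 and Cxcl16 lie above 0 in MG of both genotypes, and of these only Cxcl13 has no interval across 0.

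In reporter mice, where all cells had been through BLZ945, LPS brought Cxcl2 and Cxcl13 from near 0 in MG. Cxcl2 was at 0 in all 3 PBS libraries of MG and at 54, 51.2 and 50.7 CPM after LPS, at least 171-fold higher (adjusted p = 0.0231). Cxcl13 lay at 0.471, 0.102 and 0 CPM and 29.3, 56.4 and 43.5 CPM, with a log2 fold change of 7.44 (SE 1.24, adjusted p = 0.042). Both separations were complete, but in this fit of 6 libraries both calls were lost when any LPS library, or PBS library 174 or 177, was left out (adjusted p 0.0581 to 0.187 for Cxcl2 and 0.0963 to 0.297 for Cxcl13). Cxcl10 lay at 10.2, 0 and 12.3 CPM after PBS and 58.1, 92.3 and 39.3 CPM after LPS, without overlap but also without a call (log2 fold change 2.90, SE 1.38, adjusted p = 0.426). Cxcl16 went from 88.8, 100.2 and 103 CPM to 523, 337 and 271 CPM without overlap, but edgeR did not call it (log2 fold change 1.71, SE 0.41, adjusted p = 0.102) while DESeq2 did (adjusted p = 0.00607). Cxcl1 lay at 0 after PBS and at 4.92, 0.64 and 1.49 CPM after LPS, at least 7.74-fold higher and not tested, and Cxcl9 at 0.471, 0.102 and 0 and 3.04, 0.896 and 4.22 CPM. Cxcl14 lay at 1.22, 0 and 0 CPM after PBS and 1.05, 1.28 and 1.61 CPM after LPS, overlapping (log2 fold change 1.47, SE 1.71, adjusted p = 0.821).

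In tdT+ sdCAMs of the reporter mice the Cxcr2 ligands and Cxcl13 rose and Cxcl16 fell. Cxcl2 went from 0.332, 0.116 and 0 CPM after PBS to 251, 78.1 and 231 CPM after LPS, a count ratio of 1040 (exact 95% counting interval 404 to 3810, adjusted p = 4.1e-05). Cxcl13 went from 0, 0.116 and 0 CPM to 656, 412 and 907 CPM, a count ratio of 16000 (exact 95% counting interval 2870 to 632000, adjusted p = 3.89e-05). The PBS and LPS groups were far apart for both. Cxcl1 was at 0 after PBS and at 18, 1.1 and 13.4 CPM after LPS, at least 32.4-fold higher (adjusted p = 0.00806), and Cxcl3 was at 0 and at 0, 4.02 and 3.63 CPM, at least 7.64-fold higher (adjusted p = 0.0475) but called in 6 of 14 alternatives only. The Cxcl3 call was lost with the columns exchanged (adjusted p = 0.0697) and without LPS mouse 5 or 7 or any PBS library (adjusted p 0.0805 to 0.115). Mouse 5, whose library held the microglial markers, was the lowest for Cxcl1, Cxcl2 and Cxcl13. Cxcl9 lay at 24, 0 and 21.1 CPM and 199, 51.2 and 160.0 CPM without overlap but was not called (log2 fold change 2.95, SE 1.09, adjusted p = 0.087), although the low-count rule of the study gave a call at 2.91 (adjusted p = 0.0488). Cxcl10 overlapped, at 63.8, 0.578 and 2.15 CPM and 13.1, 97.7 and 32.7 CPM (log2 fold change 0.83, SE 1.47, adjusted p = 0.764), as did Cxcl14 at 7.42, 7.63 and 12.6 CPM and 27.2, 3.84 and 3.63 CPM (log2 fold change 0.07, SE 0.90, adjusted p = 0.974).

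In tdT- sdCAMs the Cxcr2 ligands, Cxcl9, Cxcl13 and Cxcl14 were called higher with LPS, and a difference of the response from that of tdT+ sdCAMs was not tested. Cxcl2 went from 11.2, 1.12 and 8.28 CPM to 552, 449 and 1435 CPM (log2 fold change 7.62, SE 0.84, adjusted p = 1.3e-05). Cxcl13 went from 0.205, 1.01 and 7.84 CPM to 1888, 1363 and 833 CPM (log2 fold change 9.66, SE 1.04, adjusted p = 1.14e-05). Cxcl9 went from 23.4, 7.31 and 2.61 CPM to 1481, 201 and 1065 CPM (log2 fold change 7.07, SE 1.31, adjusted p = 0.000918). No PBS library of these 3 genes reached an LPS library, although LPS mouse 5 was well below the others for Cxcl9. Cxcl1 went from 1.23, 0 and 0.545 CPM to 12.1, 26.6 and 7.47 CPM (log2 fold change 5.64, SE 1.49, adjusted p = 0.0125), with an adjusted p of 0.0647 without LPS mouse 5 and 0.0536 without PBS mouse 177. Cxcl3 went from 0, 0.102 and 0 CPM to 1.64, 28 and 1.87 CPM, a count ratio of 443 (exact 95% counting interval 78.7 to 17500, adjusted p = 0.00851) that rested on mouse 5 (adjusted p = 0.108 without it). Cxcl14 went from 6.35, 5.68 and 5.34 CPM to 52.6, 5.03 and 11.5 CPM, overlapping, and its call (log2 fold change 2.72, SE 0.95, adjusted p = 0.0446) turned into 0.85 (adjusted p = 0.582) with the columns exchanged and 1.25 (adjusted p = 0.39) without LPS mouse 1, and was lost without any 1 of the 3 PBS libraries (adjusted p 0.112 to 0.135). Cxcl10 overlapped at 41.6, 0 and 6.97 CPM and 11.3, 71.6 and 35.2 CPM (log2 fold change 2.27, SE 1.52, adjusted p = 0.286). Summed neutrophil markers in the LPS libraries were 281.3 to 1502 CPM for tdT- and 21.2 to 84.5 CPM for tdT+ sdCAMs as named, and their part in these results was not tested. The response averaged over both populations was 7.27 for Cxcl1, 8.76 for Cxcl2, 5.01 for Cxcl9 and 11.47 for Cxcl13 on the log2 scale, all called, and Cxcl3 had a count ratio of 598 (exact 95% counting interval 106 to 23700, adjusted p = 0.00139). Averaged Cxcl10 was 1.55 (SE 1.05, adjusted p = 0.278), or 3.52 (adjusted p = 0.0203) without tdT+ PBS library 174, and averaged Cxcl14 was 1.39 (SE 0.65, adjusted p = 0.109), which DESeq2 called (adjusted p = 0.04).

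Exchanging the tdT- library of mouse 1 with the tdT+ library of mouse 7 left the calls of Cxcl1, Cxcl2 and Cxcl13 in tdT+ sdCAMs and of Cxcl1, Cxcl2, Cxcl3, Cxcl9 and Cxcl13 in tdT- sdCAMs in place, as did leaving both out. The exchanged log2 fold changes in tdT- sdCAMs were 7.35 (adjusted p = 0.00297) for Cxcl2, 6.03 (adjusted p = 0.0402) for Cxcl9 and 9.12 (adjusted p = 0.00155) for Cxcl13. In tdT+ sdCAMs the counts of Cxcl2 and Cxcl13 after PBS are too few for a fold on this scale.

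Cxcl16 was lower after LPS in these sdCAMs in plain CPM, and the change passed the test in tdT+ sdCAMs. It lay at 340.3, 358 and 319.6 CPM after PBS and 151, 272 and 179 CPM after LPS in tdT+ sdCAMs, and at 218, 195 and 206 CPM and 83.5, 91.1 and 75 CPM in tdT- sdCAMs. In plain CPM each LPS library was below each PBS library of its population. The log2 fold change was -1.02 (SE 0.30, adjusted p = 0.0348) in tdT+ sdCAMs, called in 4 of 14 alternatives, and lost with the columns exchanged (-1.09, adjusted p = 0.0819) and without any 1 of 5 libraries (LPS mouse 1 or 7, PBS mouse 174, 175 or 177; adjusted p 0.076 to 0.134). In tdT- sdCAMs it was -0.46 (95% interval -1.09 to 0.18, adjusted p = 0.276), and -1.31 (adjusted p = 0.00302) with no factor. The average was -0.74 (SE 0.21, adjusted p = 0.0143), under the fold limit, and -1.03 (adjusted p = 0.00127) with no factor. Set against the reporter MG, the Cxcl16 response of the sdCAMs was lower, with a log2 difference of -2.46 (SE 0.43, adjusted p = 0.00366), and this was the called difference between cell types among the 8 members, 1 of 8 (2.15% of all genes were called). It was called in each of 28 alternatives, exchanged columns and the omission of any 1 library included, where omissions gave -2.72 to -2.06. The Cxcl13 response was 4.12 (SE 1.53, adjusted p = 0.192) larger in sdCAMs, which was not called by edgeR, and was called by DESeq2 (adjusted p = 0.0264) and without tdT- PBS library 177 (adjusted p = 0.0313). The difference was 1.58 (95% interval -2.41 to 5.58, adjusted p = 0.796) for Cxcl9 and -1.34 (95% interval -5.24 to 2.57, adjusted p = 0.838) for Cxcl10. It was -0.03 (95% interval -1.51 to 1.45, adjusted p = 1) for Cxcl14, and is not given for the Cxcr2 ligands, at 0 in reporter MG after PBS.

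Against reporter MG, sdCAMs (the mean of tdT+ and tdT-) held more of 4 of 8 members after PBS (11.1% of all genes were called). Cxcl2 was at least 11.5-fold higher (adjusted p = 0.0125), with an adjusted p of 0.1 without tdT+ library 174. The log2 difference was 5.94 (SE 1.36, adjusted p = 0.00669) for Cxcl9, 4.17 (SE 1.28, adjusted p = 0.041) for Cxcl14 and 1.46 (SE 0.32, adjusted p = 0.00462) for Cxcl16, and the Cxcl14 call held in 8 of 19 alternatives. It was lost with the columns exchanged (adjusted p = 0.0523) and without tdT+ 174 or 177, tdT- 174, 175 or 177, or MG 175 or 177 (adjusted p 0.0523 to 0.107). Cxcl10 differed by 1.40 (95% interval -1.54 to 4.34, adjusted p = 0.604) and Cxcl13 by 0.94 (95% interval -2.90 to 4.78, adjusted p = 0.826). Cxcl1 and Cxcl3 were at 0 in MG with too few counts in sdCAMs to read. After LPS, 6 of 8 were called (8.71% of all genes), with Cxcl16 lower. The log2 difference was 3.43 (SE 0.65, adjusted p = 0.0031) for Cxcl2, 7.52 (SE 1.31, adjusted p = 0.00134) for Cxcl9, 5.06 (SE 0.83, adjusted p = 0.000799) for Cxcl13 and -1.0 (SE 0.29, adjusted p = 0.0336) for Cxcl16. Cxcl3 was at least 17.7-fold higher (adjusted p = 0.0355) and Cxcl14 differed by 4.14 (SE 1.27, adjusted p = 0.0461). Not called were Cxcl10 at 0.07 (95% interval -2.67 to 2.80, adjusted p = 0.993) and Cxcl1 at 3.03 (95% interval 0.15 to 5.91, adjusted p = 0.194), the latter called by DESeq2 (adjusted p = 0.0369). With the mouse as a block the adjusted p became 0.0758 for Cxcl3, 0.123 for Cxcl14 and 0.0551 for Cxcl16, and with the columns exchanged 0.0552, 0.0699 and 0.0812. The Cxcl3 call was lost without any MG library, tdT- mouse 5 or tdT+ mouse 7 (adjusted p 0.0629 to 0.12). The Cxcl14 call was lost without any MG library or tdT+ or tdT- of mouse 1 or 7 (adjusted p 0.054 to 0.163), and the Cxcl16 call without MG mouse 1 or 5 or these same sdCAM libraries (adjusted p 0.0524 to 0.323).

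Between the sdCAM populations of the same mice, no member was called after PBS (0 of 8 with edgeR, 0.0236% of all genes called). At an unadjusted p under 0.05 edgeR gave 4 members and 566 of 12708 genes, and DESeq2 called 2 members and 109 genes. Cxcl2 had the smallest adjusted p, with 0.332, 0.116 and 0 CPM in tdT+ and 11.2, 1.12 and 8.28 CPM in tdT- sdCAMs and no overlap, a count ratio of 0.0218 (exact 95% counting interval 0.00588 to 0.0567, adjusted p = 0.0852) that the mouse as a block called at a log2 difference of -5.29 (adjusted p = 0.0189), as did the omission of tdT- library 175 at -5.81 (adjusted p = 0.00479). Cxcl13 had a count ratio of 0.0127 (exact 95% counting interval 0.000318 to 0.0728, adjusted p = 0.319) and was called, like Cxcl2, by DESeq2 (adjusted p = 0.00594 and 6.5e-05). The log2 difference was 0.48 (95% interval -1.72 to 2.67, adjusted p = 1) for Cxcl9 and 0.50 (95% interval -2.61 to 3.60, adjusted p = 1) for Cxcl10. Cxcl14 gave 0.70 (95% interval -1.21 to 2.60, adjusted p = 1) and Cxcl16 0.75 (95% interval 0.11 to 1.38, adjusted p = 0.948). Cxcl1 and Cxcl3 were at 0 in tdT+ sdCAMs. After LPS, 2 of 8 were called, both lower in tdT+ sdCAMs (10.6% of all genes were called), namely Cxcl2 with a log2 difference of -3.05 (SE 0.67, adjusted p = 0.00827) and Cxcl9 with -3.64 (SE 1.12, adjusted p = 0.0478). Cxcl13 differed by -2.11 (SE 0.74, adjusted p = 0.0849), or -2.10 (adjusted p = 0.0171) with the block and -2.23 (adjusted p = 0.0479) with DESeq2, and Cxcl14 by -1.95 (SE 0.93, adjusted p = 0.212), or -3.58 (adjusted p = 0.0452) without tdT+ mouse 1. Among the tdT+ LPS libraries, Cxcl2 and Cxcl9 were lowest in mouse 5, whose library held the microglial markers. The part of these markers was not tested. The calls of Cxcl2 and Cxcl9 depend on the columns being as named. With the columns exchanged the log2 difference was -1.49 (adjusted p = 0.869) for Cxcl2 and 0.28 (adjusted p = 1) for Cxcl9, and no member was called. Cxcl16 lay higher in each tdT+ than in each tdT- library in plain CPM, with means of 200.6 and 83.2 CPM, while its TMM-scaled log2 difference was 0.18 (95% interval -0.46 to 0.82, adjusted p = 0.77). With library totals and no factor, which shifted the median of all genes by 1.01, Cxcl16 was called higher in tdT+ sdCAMs at 1.27 (adjusted p = 0.00497) and Cxcl9 lost its call at -2.75 (adjusted p = 0.0598). The log2 difference was -1.67 (95% interval -4.32 to 0.97, adjusted p = 0.455) for Cxcl1 and -3.35 (95% interval -6.84 to 0.14, adjusted p = 0.232) for Cxcl3. Cxcl10 gave -0.94 (95% interval -4.06 to 2.18, adjusted p = 0.747). The groups overlapped for these 3. Cxcl9 was also lost without any 1 of 5 LPS libraries (tdT+ mouse 1, 5 or 7, tdT- mouse 1 or 7; adjusted p 0.0719 to 0.149).

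Of the 6 other CXC ligands fixed as a list, Pf4 and Ppbp, ligands stored in platelets and also made by macrophages, were sdCAM genes in untreated mice of both genotypes. Pf4 lay at 6957, 2984 and 526 CPM in untreated WT sdCAMs and at 6994, 5639.7 and 4308 CPM after CTL and LPS, and in Ccr2-/- sdCAMs it fell from 2274, 2416 and 2209 CPM to 902, 798 and 1016 CPM (log2 fold change -1.20, SE 0.23, adjusted p = 0.00179). In tdT+ sdCAMs the log2 fold change of Pf4 with LPS was -4.79 (SE 0.46, adjusted p = 3.27e-05). The log2 difference of tdT+ over tdT- sdCAMs after LPS was -5.06 (SE 0.47, adjusted p = 6.61e-06) for Pf4, with the columns as named. Pf4 is the gene that was set against the exchange of columns above, so this value adds nothing on the naming. Cxcl5, a further Cxcr2 ligand, was at least 7.66-fold higher (adjusted p = 0.0231) with LPS in Ccr2-/- sdCAMs, where 1 of 4 tested rose and 1 fell (21.5% of all genes were called). Cxcl12, the Cxcr4 ligand of stromal cells, was called higher in sdCAMs than MG after CTL and LPS in both genotypes. Summed fibroblast markers of these libraries are given with Cxcl14, and their part in the Cxcl12 calls was not tested. Cxcl15 and Cxcl17 were not called anywhere.

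Among the 9 receptors, Cxcr3, the receptor of Cxcl9 and Cxcl10, was called lower with LPS in both MG and sdCAMs of Ccr2-/- mice, in WT MG and in both reporter sdCAM populations. Cxcr3 lay at 3.14, 3.71 and 3.01 CPM in untreated Ccr2-/- MG and at 0, 0 and 0.4 CPM after LPS (log2 fold change -4.59, SE 1.22, adjusted p = 0.0117), and in WT MG it went from 3.2, 2.93 and 1.78 CPM to 0 in all 3 libraries, at least 7.62-fold lower (adjusted p = 0.00256). In Ccr2-/- sdCAMs it fell from 108, 79.6 and 83.2 CPM to 0.127, 1.01 and 0 CPM (log2 fold change -7.59, SE 1.10, adjusted p = 0.000217). Its log2 fold change was -4.84 (SE 1.08, adjusted p = 0.00789) in tdT+ and -3.49 (SE 0.99, adjusted p = 0.0162) in tdT- sdCAMs. Summed T cell markers in tdT+ sdCAMs were 56.5, 0.578 and 47.4 CPM after PBS and 1.46, 4.02 and 0.363 CPM after LPS. In tdT- sdCAMs they were 7.99, 0.406 and 0.109 CPM after PBS and 28.2, 0 and 3.42 CPM after LPS. They were at 0 in untreated Ccr2-/- sdCAMs. Their part in the fall of Cxcr3 was not tested. Cxcr2, the receptor of Cxcl1, Cxcl2 and Cxcl3, was at 0 in untreated WT MG and at 11.1, 2.9 and 3.51 CPM after LPS, at least 15.7-fold higher (adjusted p = 0.00111), with a count ratio of 220 (exact 95% counting interval 39.1 to 8730, adjusted p = 7.52e-05) in Ccr2-/- MG. Cxcr5, the receptor of Cxcl13, was called with LPS in Ccr2-/- sdCAMs with a count ratio of 47.7 (exact 95% counting interval 16 to 234, adjusted p = 0.0114). In all, 2 of 3 tested were called in WT MG (1 higher, 1 lower, with 16.7% of all genes called), 3 of 4 in Ccr2-/- MG (1 higher, and Cxcr3 and the scavenger receptor Ackr3 lower, with 19.4% of all genes called), 0 of 2 in WT sdCAMs (6.32% of all genes) and 2 of 3 in Ccr2-/- sdCAMs (1 higher, 1 lower, with 21.5% of all genes called). Untreated Ccr2-/- sdCAMs exceeded MG in Cxcr3, and WT sdCAMs after CTL and LPS were below MG in Cxcr2. Ackr1 was called higher with LPS in the averaged reporter sdCAMs. Cxcr4 was called higher in sdCAMs than MG in untreated WT mice, in WT mice after CTL and LPS, and in reporter mice in both conditions. Cxcr6, the receptor of Cxcl16, was called in reporter sdCAMs against MG after PBS, at 132, 0 and 77.1 CPM in tdT+ sdCAMs of mice 174, 175 and 177, whose summed T cell markers were 56.5, 0.578 and 47.4 CPM. The part of T cells in it was not tested.

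Of the 4 proteases that cleave these chemokines, Mmp9 was called higher in sdCAMs than MG in each of the 6 comparisons of cell type and Adam10, which sheds Cxcl16, was called lower in sdCAMs in the 4 of WT and Ccr2-/- mice. Adam10 fell with LPS in tdT- sdCAMs (log2 fold change -1.47, adjusted p = 0.00463), as did Mmp9 (log2 fold change -3.24, SE 0.81, adjusted p = 0.00756), and Mmp9 fell in Ccr2-/- sdCAMs to a log2 fold change of -1.0 (SE 0.34, adjusted p = 0.0435). Adam17 was called lower in WT sdCAMs than MG untreated and after LPS, and Dpp4, which trims the end of Cxcl10, was called higher in reporter sdCAMs than MG after PBS.

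Of the 10 regulators, 7 were called with LPS in the MG of WT mice (16.7% of all genes) and 7 in those of Ccr2-/- mice (19.4% of all genes), 6 higher and 1 lower in each. Among those higher in WT MG, the log2 fold change was 2.65 (SE 0.20, adjusted p = 3.88e-06) for Nfkbia, with Nfkbiz (log2 fold change 3.20, SE 0.51, adjusted p = 0.000776), Zc3h12a (log2 fold change 1.94, SE 0.25, adjusted p = 0.000204), Irf7 (log2 fold change 2.50, SE 0.35, adjusted p = 0.000342) and Irf1 (log2 fold change 1.12, SE 0.33, adjusted p = 0.0208). Nfkbia, an inhibitor of NF-kappaB, and Nfkbiz, which encodes a protein of the same family, are induced by NF-kappaB itself, and Zc3h12a is an RNase that degrades chemokine transcripts. Nfkb1 fell in WT MG, with a log2 fold change of -1.17 (SE 0.18, adjusted p = 0.000703). In sdCAMs, 2 of 10 were called in WT (Nfkbia and Irf7, both higher, with 6.32% of all genes called) and 6 of 10 in Ccr2-/- mice (Nfkbia, Nfkbiz, Irf1, Irf7, Zfp36 and Zc3h12a, all higher, with 21.5% of all genes called). In reporter mice 4 of 10 were called in tdT+ (Nfkb1, Nfkbia, Nfkbiz and Zc3h12a, all higher, with 13.4% of all genes called) and 5 of 10 in tdT- sdCAMs (the same 4 higher and Irf1 lower, with 26.5% of all genes called). In reporter MG 1 of 10 was called, where 1.08% of all genes were, and this was Nfkbia (log2 fold change 2.84, SE 0.44, adjusted p = 0.0378). These counts were not tested against each other. Nfkb1 differed in its response between cell types, by 1.08 (SE 0.30, adjusted p = 0.0292) in Ccr2-/- and 1.80 (SE 0.43, adjusted p = 0.0309) in reporter mice, higher in sdCAMs. Irf7 was called higher in sdCAMs than MG in all 6 comparisons, and Nfkbiz in untreated WT and Ccr2-/- mice. Irf3 and Nfkbia were called higher and Rela lower in WT sdCAMs after CTL and LPS. No gene of the 4 lists was called between BLZ945 and CTL in any of the 4 comparisons.

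Levels per kilobase of merged exons, which let genes be set side by side, were ranked for the 8 members only. Among these, Cxcl16 had the highest level in all MG groups and in the 4 sdCAM groups without LPS. Cxcl13 had the highest in all sdCAM groups after LPS. Pf4 and the other listed CXC ligands were not ranked. Cxcl16 reached 24.0 CPM per kilobase in untreated Ccr2-/- MG and 143.7 CPM per kilobase after BLZ945 and LPS. Cxcl13 reached 483.4 CPM per kilobase in Ccr2-/- sdCAMs after CTL and LPS and 1430 CPM per kilobase in WT sdCAMs. In untreated WT sdCAMs the first 2 lay side by side, with means of 23.7 CPM per kilobase for Cxcl16 and 23.6 CPM per kilobase for Cxcl9 and overlapping libraries. Of 8784 genes whose mean reached 10 CPM, those whose log2(CPM + 1) followed Cxcl2 most closely over the 18 group means were Lcn2 (Pearson r 0.971), Saa3 (0.97) and Ccl5 (0.952), those nearest to Cxcl9 were Mt1 (0.954), Fpr2 (0.948) and Ttc39c (0.938), and those nearest to Cxcl13 were Lcn2 (0.974), Ccl5 (0.969) and Saa3 (0.964). These values describe 18 means that share LPS, cell type and libraries, and carry no test.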

How the data were processed

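MG and sdCAMs were sorted into RNA-protecting reagent, cDNA was made with a SMARTer ultra-low-input kit, Nextera XT libraries were sequenced as 50-cycle single reads, and reads were aligned with STAR 2.7.11a and counted per gene with featureCounts 2.0.8. bcl2fastq 2.20 and DESeq2 1.46.0 are named in the submitters' processing notes. The deposited values are whole-number counts per gene symbol, not normalized by the authors, in 3 tables of 18 columns. The sources name mm10 and GRCm39 side by side and give no strand setting, so no coordinate of the files is printed and genes overlapping on opposite strands are uncertain. Counts hold no molecular identifiers, so counting intervals cover counting error only, and amplification from few cells adds scatter that depth does not remove.

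Columns were matched to samples by library number, mouse and population (0 columns of other samples). Counts were fitted with edgeR 4.0.16 in R 4.3.3 (filterByExpr, TMM, quasi-likelihood F test, two-sided) with Benjamini-Hochberg adjustment over all genes tested in a fit, in 23 comparisons. The 3 groups of each cell type shared 1 fit in WT and in Ccr2-/- mice, reporter sdCAMs shared 1 fit of 12 libraries, and reporter MG were fitted alone. Differences between cell types and interactions came from fits of both cell types of a genotype. Calls needed both an adjusted p under 0.05 and an absolute log2 change above 1. Where a group was at 0, a fold is a lower bound against 3 counts a library. Where every library of 1 group held at most 3 counts, and not all were at 0, a ratio of pooled counts with an exact interval is given. Such ratios use library totals without TMM, and their intervals hold no spread between mice. The adjusted p beside a bound or ratio is that of edgeR's TMM-scaled fit. Levels are CPM, and per-kilobase levels use merged exons. The procedure was tested on simulated data before use.

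The 8 genes found are given in each comparison, by their levels alone where counts at or near 0 left no readable fold, and a gene of the 4 other lists is named where it was called or where its list has at most 6 genes. The members and lists were chosen with earlier results of these data known. Alternatives were DESeq2 1.42.0, RLE factors, the low-count rule of the study, a minimum mean of 10 counts, no fold limit, fits of only the libraries compared, the mouse as a block, the label mark as a covariate, the exchange of 2 reporter columns, and leaving out each library. Chosen after seeing the data were the omission of both libraries concerned, their exchange together with the block, the marked WT sdCAM libraries alone, and library totals with no factor. MG and sdCAMs, or tdT+ and tdT- sdCAMs, of 1 mouse share the animal by the labels. Over 36 such pairs, the correlation of deviations from the group means was -0.127 to 0.319 (median 0.086), with 14 pairs over 0.1. Replicates are separate mice, and no 2 libraries agreed within sampling noise. limma 3.58.1 served edgeR only. A regulator that enters the list's counts is not reported by name here.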

Additional observations from a re-analysis of the deposited data

Results flagged for a closer look

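The Cxcl16 response to LPS differed between cell types in repopulated reporter mice, by a log2 difference of -2.46 (adjusted p = 0.00366, edgeR's interaction test), lower in sdCAMs. In plain CPM, the 3 LPS libraries of MG were above the 3 PBS libraries. In tdT+ and in tdT- sdCAMs the LPS libraries were below the PBS libraries of the same population in plain CPM. With TMM scaling the fall was called in tdT+ but not in tdT- sdCAMs. Saa3 took 14.5, 28.3 and 17.8% of counts in the LPS libraries of tdT- sdCAMs, and its part was not tested.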

How the results depend on the processing

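Over single members in all comparisons and settings, 2511 values kept their side of the call limits (uncalled values among them may have changed sign), 46 became called, 123 lost the call, and 2 reversed. The latter were Cxcl16 in WT sdCAMs against MG after CTL and LPS (-1.44 with library totals and no factor) and Cxcl9 in tdT+ against tdT- sdCAMs after LPS (0.285 with the columns exchanged). The causes were not tested. Low counts limit the precision for Cxcl1 and Cxcl3 in MG.

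The number of members called moved by over 1.5 times in these cases. DESeq2 gave 6 for 3 in the LPS response of WT sdCAMs, 4 for 2 in reporter MG, 3 for 5 in tdT+ sdCAMs, 1 for 0 in the WT and in the Ccr2-/- interaction, 2 for 1 in the reporter interaction, 1 for 0 for BLZ945 in WT MG and 2 for 0 in tdT+ against tdT- after PBS. In WT sdCAMs the label mark as a covariate gave 5 and the 6 libraries compared alone gave 5. Library totals with no factor gave 1 for 0 in the WT and in the Ccr2-/- interaction, no fold limit gave 1 in the latter, and the low-count rule of the study gave 1 for 0 in tdT+ against tdT- after PBS. With the columns exchanged or with both libraries omitted, tdT+ sdCAMs gave 3 for 5 and reporter sdCAMs against MG after LPS gave 3 for 6, as did the exchange together with the block. For tdT+ against tdT- after LPS the exchange gave 0 for 2, with or without the block, and the omission gave 1. Leaving out 1 library at a time gave 1 to 4 members in the LPS response of WT sdCAMs, 0 to 1 in the Ccr2-/- interaction, 3 to 6 for sdCAMs against MG in untreated Ccr2-/- mice, 0 to 2 in reporter MG, 3 to 4 in tdT+ sdCAMs, 1 to 2 in the reporter interaction, 2 to 4 and 3 to 6 for reporter sdCAMs against MG after PBS and LPS, and 0 to 1 and 1 to 2 for tdT+ against tdT- after PBS and LPS.

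With the mouse as a replicate block, reporter sdCAMs against MG after LPS gave 3 calls for 6 and tdT+ against tdT- after PBS gave 1 for 0. The block also called Cxcl13 in untreated WT mice and in tdT+ against tdT- sdCAMs after LPS, and dropped Cxcl3 in WT mice after CTL and LPS. It changed no other call of a member.

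Counts over all genes moved by over 1.5 times in these comparisons. LPS response gave 664 in WT sdCAMs (645 to 2857, and 137 to 293 on leaving out a library), 1972 in WT MG (1850 to 3643), 2243 in Ccr2-/- MG (2213 to 4036), 118 in reporter MG (111 to 1013, and 0 to 403), 1698 in tdT+ (1097 to 2652, and 966 to 1738) and 3371 in tdT- sdCAMs (1513 to 4388). Interactions gave 174 in WT (91 to 2703, and 46 to 260) and 286 in reporter mice (86 to 986, and 129 to 400). sdCAMs against MG gave 2242 in untreated WT (1380 to 3063, and 960 to 3078), 4651 in WT after LPS (3947 to 7978), and 1471 (892 to 2252) and 1159 (354 to 2106, and 569 to 1542) in reporter mice after PBS and LPS. tdT+ against tdT- gave 3 after PBS (0 to 109, and 0 to 7) and 1352 after LPS (0 to 3823). BLZ945 against CTL gave 9, 0, 2 and 0 in WT MG, WT sdCAMs, Ccr2-/- MG and Ccr2-/- sdCAMs (at most 46, 151, 26 and 84, and 13, 788, 12 and 7 on leaving out a library).

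Scaling moved the share of higher calls. RLE factors took it from 32.8 to 44.6% for the WT interaction, 54.1 to 65.2% for WT sdCAMs against MG after LPS, 43.7 to 54% for the reporter interaction and 35.1 to 24.8% for tdT+ against tdT- after LPS. With no factor it became 11% for LPS in WT sdCAMs (58.6% with TMM, median of all genes shifted by -1.46), 98% for BLZ945 against CTL in WT sdCAMs (no calls with TMM, shift 1.35), 14.9% for WT sdCAMs against MG after LPS (shift -1.80), 3.5 and 12.1% for the WT and reporter interactions, 25% for tdT- sdCAMs (54.8%), 42.7% for both populations (57.5%), 87.4% for tdT+ against tdT- after LPS (shift 1.01), 24.3% for reporter sdCAMs against MG after LPS (61.3%), 22.9% for the Ccr2-/- interaction (41.8%), 34.7% for Ccr2-/- sdCAMs against MG after LPS (50.6%), 70.5% for tdT+ sdCAMs (56.4%) and 72.1% for reporter MG (61%).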
